A study of Mus musculus with 14 samples.

Results

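The Schlafen genes of the mouse were followed in the plantaris, a calf muscle, through the first days of mechanical overload. The family members considered were Slfn1, Slfn2, Slfn3, Slfn4, Slfn5, Slfn8 and Slfn9, and each was taken from the probe set whose array annotation names that gene alone. All 7 members had 1 such probe set, so 7 of the 19938 genes measured were followed. The family had been picked because Slfn4 was among the largest rises of day 1, where it ranked 9 of 19938 genes. Ptgs2, with a log2 difference of 4.58 from day 0, stood just above it and Il1b, with 4.49, just below. Differences between day 1 and day 0 are therefore given as a description, without a test, for every member.

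All animals were male C57BL/6J mice of 25 months. To overload the plantaris, its synergists, the gastrocnemius and the soleus, were removed by surgery, and muscle was taken on days 0, 1, 3, 5, 7, 10 and 14. Each day had 2 Affymetrix Mouse Gene 1.0 ST arrays, 1 of a pool of left muscles and 1 of a pool of right muscles of 6 animals. The labels name no sham-operated group, so surgery and load cannot be told apart in a comparison with day 0. Deposited log2 signals had a median of 7.91 to 7.97 per array, and Pearson's r between both sides of 1 day, taken across genes, was 0.994 to 0.997. The labels do not say whether both pools of a day came from the same animals, so a p-value here reflects how far these arrays scatter, which may be technical, and the day and its animals cannot be told apart. The labelled tissue was checked on its markers: the day mean of the log2 signal of 14 muscle fibre genes lay between 13.1 and 13.9. Differences below are on the log2 scale and ± gives their standard error (n = 2 arrays a day). Each adjusted p comes from limma fitted to all genes, with Benjamini-Hochberg adjustment over them, and a gene passed, and is said to have risen or fallen, where it was under 0.05.

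Schlafen proteins are found in mammals as a fast-evolving family, and their genes respond to interferon and to microbial stimuli, above all in cells of the immune system. The short proteins Slfn1 and Slfn2 and the intermediate Slfn3 and Slfn4 share an N-terminal core domain. The long proteins Slfn5, Slfn8 and Slfn9 carry in addition a C-terminal part that resembles superfamily I helicases. Slfn1 and Slfn2 are known from the control of T cell growth and quiescence, Slfn4 from myeloid cells activated through Toll-like receptors or interferon, and several long Schlafens of mammals from the cleavage or binding of transfer RNA.

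The genes lie side by side on chromosome 11. In the RefSeq annotation of GRCm38.p6 the order is Slfn5, Slfn9, Slfn8, Slfn10-ps, Slfn2, Slfn1, Slfn4, Slfn3 and Slfn14, with pseudogenes and noncoding RNA genes between some of them. Promoter sequences, from 250 bases before to 50 after the annotated start, were found in RefSeq for all 7 members. They are shown because the 7 members split by their letters in the same way as by length of the protein. Slfn1, Slfn2, Slfn3 and Slfn4 each held ACTTCCTG, an extended form of the site bound by ETS factors such as PU.1, on either strand. Slfn5, Slfn8 and Slfn9 did not hold these letters. The shorter TTCC within them was not searched and also stands in the promoter of Slfn9, so an absence of ETS sites is not shown. Slfn5, Slfn8 and Slfn9 each held the core of the interferon-stimulated response element (GAAA, any 2 bases, GAAA) on either strand, and the other four did not. Of 32851 promoters of 300 bases in the same table, 3.33% held the first and 3.44% the second. The STAT element TTCNNNGAA, held by 8.3% of promoters, was in none of the 7. The promoter of Slfn14, outside the 7, was searched as well and held none of these elements. The ETS letters were searched after the sequences had been read, and a match is a description of these letters only.

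The stretches around the matches are printed 5′ to 3′ on the strand of the gene, with the matching bases in capitals, in GRCm38.p6. Slfn1 covers chr11:83116731-83116768 and Slfn2 chr11:83065042-83065079, both on the plus strand. Slfn3 covers chr11:83191273-83191310 on the plus strand and holds a second match, on the other strand, just upstream. Slfn5 covers chr11:82951932-82951971 on the plus strand and Slfn8 chr11:83020834-83020873 on the minus strand.
Slfn1: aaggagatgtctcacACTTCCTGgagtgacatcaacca
Slfn2: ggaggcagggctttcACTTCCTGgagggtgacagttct
Slfn3: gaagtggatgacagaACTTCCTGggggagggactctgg
Slfn5: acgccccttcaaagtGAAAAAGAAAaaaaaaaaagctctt
Slfn8: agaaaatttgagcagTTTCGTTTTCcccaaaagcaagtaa
The whole promoters of Slfn4 (chr11:83174936-83175235, plus strand) and Slfn9 (chr11:82991781-82992080, minus strand), members whose day means were highest on day 1 and on day 5, are printed in the same way.
Slfn4: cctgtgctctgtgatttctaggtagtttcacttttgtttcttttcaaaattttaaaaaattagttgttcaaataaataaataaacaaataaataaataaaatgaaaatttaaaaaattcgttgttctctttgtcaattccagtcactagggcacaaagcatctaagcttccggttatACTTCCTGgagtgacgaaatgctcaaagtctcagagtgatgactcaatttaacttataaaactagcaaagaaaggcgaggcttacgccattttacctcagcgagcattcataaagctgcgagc
Slfn9: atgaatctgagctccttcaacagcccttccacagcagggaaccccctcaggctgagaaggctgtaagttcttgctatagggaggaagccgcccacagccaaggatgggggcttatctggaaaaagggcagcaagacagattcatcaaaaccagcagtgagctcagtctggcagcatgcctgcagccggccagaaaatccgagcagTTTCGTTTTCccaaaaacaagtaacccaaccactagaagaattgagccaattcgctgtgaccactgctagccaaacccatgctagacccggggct
Counted from the annotated start, the first base of the ETS match lay at -74 in Slfn1, -73 in Slfn4, -55 in Slfn2 and -42 in Slfn3, and in Slfn1 and Slfn4 it lay within a shared run of 15 bases. The interferon element lay at -45 in Slfn9, at -155 in Slfn5, and at -48 and -136 from the 2 annotated starts of Slfn8. Slfn8 and Slfn9 held the same letters at the match, and their promoters shared a run of 20 bases outside it, the longest of any pair. Their matches are therefore not separate observations. The match of Slfn5 ran into a tract of A.

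Slfn4, an interferon-induced gene of the myeloid lineage, had the largest span of the family, 4.62 on the log2 scale between its highest and lowest day means. On day 0 its log2 signal was 8.53 (left pool) and 7.91 (right pool), and 12.82 and 12.68 on day 1. The arrays of day 3 stood at 11.01 and 10.99, those of day 5 at 9.99 and 10.00, and those of day 7 at 8.83 and 8.81. On day 10 the values were 8.73 and 8.91, and on day 14 they were 8.35 and 7.92. Day 1 was thus highest, followed by days 3 and 5 with no overlap between any of these days. Days 7 and 10 overlapped each other, and day 14 lay within the range of day 0. The day 1 mean was 4.53 ± 0.17 (SE, n = 2 arrays a day) above day 0 on the log2 scale, or 23.1-fold, and the differences on days 3, 5, 7, 10 and 14 were 2.78, 1.78, 0.60, 0.60 and -0.08. The values of days 7 and 10 depended on the day 0 arrays: without the right array of day 0 they were 0.29 and 0.29, and without the left 0.90 and 0.91.

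Slfn1, the founding member of the family, followed a like course. Its log2 signal on the left and right arrays was 7.84 and 7.43 on day 0, 11.67 and 11.69 on day 1, 10.54 and 10.48 on day 3, and 9.60 and 9.55 on day 5. It was 8.49 and 8.55 on day 7, 8.41 and 8.17 on day 10, and 8.19 and 7.73 on day 14. Its day 1 mean was 4.04 ± 0.15 above day 0, or 16.5-fold, and ranked 21 among the rises of that day. The arrays of days 1, 3, 5 and 7 did not overlap with one another, and day 14 overlapped with day 0. Slfn1 remained 2.87 ± 0.15 above day 0 on day 3 (adjusted p = 1.35e-08) and 0.65 ± 0.15 above it on day 10 (adjusted p = 0.00261). On day 14 the difference of 0.32 ± 0.15 did not pass (adjusted p = 0.0875). Without the left array of day 0 it was 0.53 and passed (adjusted p = 0.0168), as it did without the right array of day 14 at 0.55 (adjusted p = 0.0122). Without the right array of day 0 it was 0.12 (adjusted p = 0.576) and without the left array of day 14 it was 0.09 (adjusted p = 0.614).

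Slfn2, whose loss breaks the quiescence of T cells and monocytes, changed less than Slfn1 and Slfn4. Its log2 signal on the left and right arrays was 9.13 and 8.66 on day 0, 11.16 and 10.79 on day 1, and 10.55 and 10.68 on day 3. It was 10.18 and 10.22 on day 5, 9.84 and 10.01 on day 7, 9.59 and 9.70 on day 10, and 9.21 and 9.29 on day 14. The order of the means was thus day 1, 3, 5, 7, 10, 14 and 0, with day 14 above both day 0 arrays. The difference from day 0 was 2.08 ± 0.15 on day 1 (4.23-fold), 1.72 ± 0.15 on day 3 (adjusted p = 7.07e-07), 1.03 ± 0.15 on day 7 (adjusted p = 5.92e-05) and 0.75 ± 0.15 on day 10 (adjusted p = 0.000783). On day 14 it was 0.36 ± 0.15 (adjusted p = 0.0542), which passed with the lowest 25% of genes left out (adjusted p = 0.0423), with an intensity trend (adjusted p = 0.0474), and without the left array of day 0 at 0.60 (adjusted p = 0.0045) or either array of day 1 (adjusted p = 0.0378). Without the right array of day 0 it was 0.12 (adjusted p = 0.496).

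Slfn3, the neighbour of Slfn4 on the chromosome, moved least among Slfn1 to Slfn4. Its log2 signal was 7.91 and 8.21 on day 0, 8.49 and 8.49 on day 1, 8.25 and 8.42 on day 3, and between 7.79 and 8.23 on the arrays of days 5 to 14. Its day 1 difference was 0.43 ± 0.11, and 0.28 without the left array of day 0. Against day 0 it did not pass on any of days 3, 5, 7, 10 and 14, with differences of 0.28, 0.05, -0.20, -0.20 and -0.18 (adjusted p between 0.0533 and 0.694). The value of day 3 passed with the side as a block (adjusted p = 0.0341), with the lowest 25% of genes left out (adjusted p = 0.0378), with an intensity trend (adjusted p = 0.0459), and without the right array of day 0 (0.43, adjusted p = 0.00947), the left array of day 3 (0.36, adjusted p = 0.0498) or either array of day 5 (adjusted p = 0.0472), and was 0.12 without the left array of day 0 (adjusted p = 0.407). Without the left array of day 0, the values of days 7, 10 and 14 were -0.35, -0.35 and -0.33 and passed as falls (adjusted p = 0.0222, 0.022 and 0.0342). Without the right they were -0.04, -0.05 and -0.02 (adjusted p = 0.768, 0.754 and 0.886). With equal array medians they were -0.34, -0.34 and -0.30 and passed as well (adjusted p = 0.0198, 0.0221 and 0.0425).

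**Figure D1:**
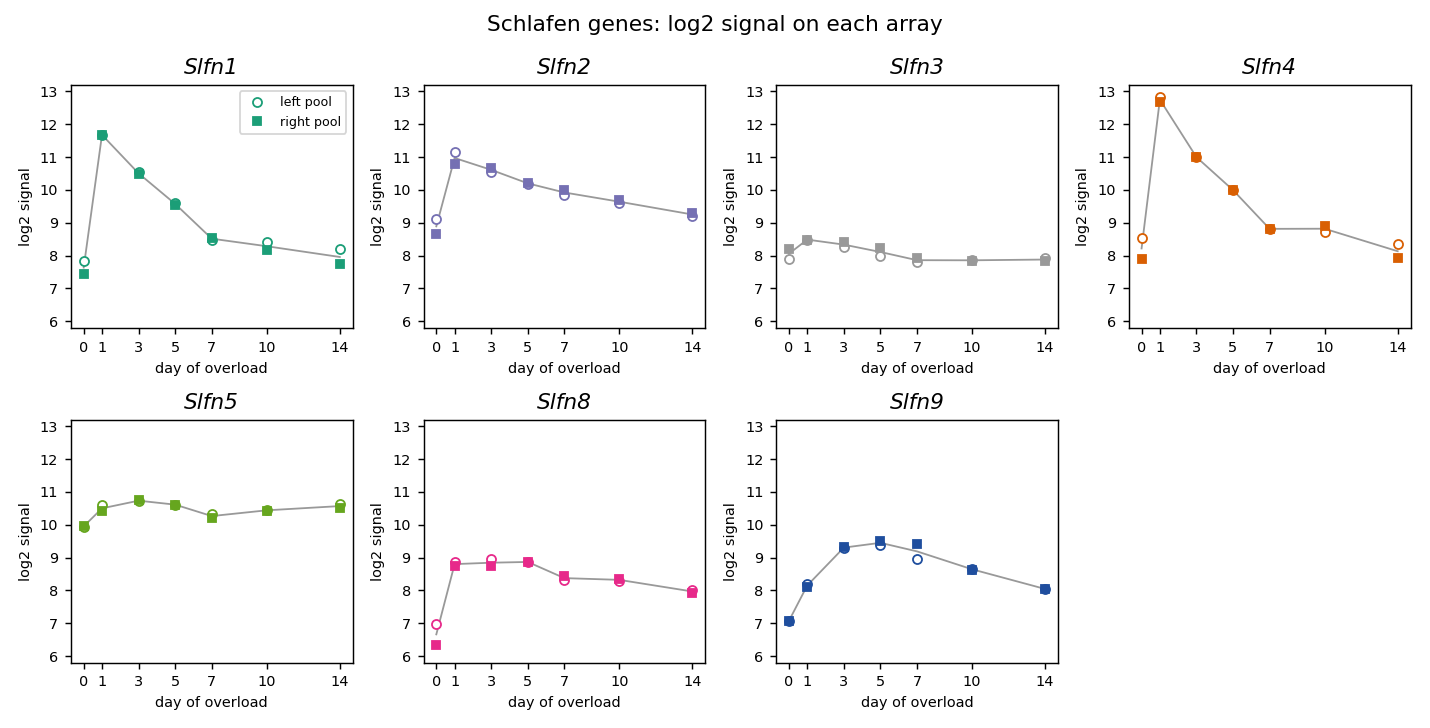
Log2 signal of the 7 Schlafen genes on each array (y axis) against the day of overload (x axis), with open circles for pools of left muscles, filled squares for pools of right muscles and a line through the day means (n = 2 arrays a day). Slfn4 reaches 12.82 and 12.68 on day 1, while both arrays of Slfn9 are higher on day 5 (9.38 and 9.52) than on day 1 (8.21 and 8.09).

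Among the long Schlafens, Slfn9 had log2 signals of 7.06 and 7.08 on the left and right arrays of day 0, 8.21 and 8.09 on day 1, 9.29 and 9.32 on day 3, and 9.38 and 9.52 on day 5. Its arrays stood at 8.97 and 9.41 on day 7, 8.66 and 8.63 on day 10, and 8.05 and 8.04 on day 14. The order of the means began with days 5, 3 and 7. The arrays of day 5 lay above those of day 3 without overlap, by a mean of 0.15 ± 0.12 that did not pass (adjusted p = 0.512), and those of day 7 overlapped with both. All arrays of days 1 and 14 lay above both of day 0. Slfn9 rose by 2.23 ± 0.12 on day 3 (4.70-fold, adjusted p = 1.29e-08), by 2.38 ± 0.12 on day 5 (5.20-fold, adjusted p = 6.52e-09), and was still 0.97 ± 0.12 above day 0 on day 14 (adjusted p = 2.17e-05). From day 1 to day 3 it rose by 1.15 ± 0.12 (adjusted p = 1.04e-05).

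Slfn8, a close paralogue of Slfn9, reached its level on day 1 and held it to day 5. Its log2 signal was 6.99 and 6.33 on day 0, 8.86 and 8.74 on day 1, 8.95 and 8.74 on day 3, and 8.87 and 8.87 on day 5. Lower values followed, 8.32 and 8.43 on day 7, 8.30 and 8.35 on day 10, and 8.02 and 7.91 on day 14. Days 1, 3 and 5 overlapped, days 7 and 10 overlapped, and every later array lay above both of day 0. The difference from day 0 was 2.14 ± 0.16 on day 1 (4.41-fold), 2.18 ± 0.16 on day 3 (adjusted p = 1.97e-07) and 1.31 ± 0.16 on day 14 (2.47-fold, adjusted p = 2.56e-05). On day 0 the mean of Slfn8 stood at percentile 18.4 of all genes and that of Slfn9 at 25.6, so the folds of both start from low signals. Whether these lay above background was not tested. From day 1 to day 3 Slfn8 differed by 0.04 ± 0.16, with a 95% interval from -0.30 to 0.39 (adjusted p = 0.839), and that sign changed with quantile normalization (-0.03) and with equal array medians (-0.02). Slfn8 resembles its neighbour Slfn10-ps and Slfn9 in sequence, and whether probes of 1 gene also bind RNA of another was not tested.

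Slfn5, a long Schlafen induced by type I interferon, moved within a narrow band. Its log2 signal was 9.94 and 9.96 on day 0, 10.59 and 10.41 on day 1, 10.73 and 10.74 on day 3, 10.61 and 10.61 on day 5, 10.32 and 10.21 on day 7, 10.45 and 10.42 on day 10, and 10.62 and 10.52 on day 14. Every array from day 1 on lay above both of day 0, and day 7 was the lowest of these days. The rise was 0.55 ± 0.08 on day 1, 0.78 ± 0.08 on day 3 (1.72-fold, adjusted p = 3.17e-06), 0.31 ± 0.08 on day 7 (adjusted p = 0.00424) and 0.62 ± 0.08 on day 14 (adjusted p = 3.71e-05). With equal array medians the day 7 rise was 0.17 and did not pass (adjusted p = 0.0719). The call of a rise from day 1 to day 3, of 0.23 ± 0.08 (adjusted p = 0.031), ended with equal array medians, with only these 4 arrays, and without the right array of day 1 (0.14, adjusted p = 0.223) or either array of day 3 (0.24 and 0.23, adjusted p = 0.0916 and 0.104).

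On day 1 both arrays of all 7 members lay above both of day 0, against 36.5% of all genes; the family was picked on that contrast, and nothing is read from the count. The 6 members other than Slfn4 were tested against day 0 on the later days. Of these, 5 rose on day 3, when 24.1% of all genes rose, 5 on day 5 (26.4% of all genes), 5 on day 7 (26.6%) and 5 on day 10 (25.9%). The member that did not pass on these days was Slfn3. Both arrays lay above both of day 0 in 7 of 7 members on day 3 (31.6% of all genes) and 6 on day 5 (32.5%). The count was 6 on day 7 (32.6%), 6 on day 10 (32.1%) and 4 on day 14 (30%). These counts include Slfn4, picked for its rise from day 0, so nothing is read from them. On day 14 Slfn5, Slfn8 and Slfn9 rose and Slfn1, Slfn2 and Slfn3 did not pass, so 3 of 6 were called against 22.9% of all genes; without the left array of day 0 it was 5. In the fit to all arrays none of the 6 fell on days 3, 5, 7, 10 or 14, while 26.6%, 33.7%, 36.3%, 34.3% and 30.5% of all genes did. On day 10 both arrays of 1 of the 7 members, Slfn3, lay below both of day 0, beside 49.8% of all genes. The median difference of the 6 was 1.95 on day 3, 1.62 on day 5, 0.96 on day 7, 0.70 on day 10 and 0.49 on day 14, beside -0.07, -0.12, -0.14, -0.13 and -0.11 over all genes. The comparisons share the day 0 arrays with one another and with the contrast that picked the family.

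**Figure D2:**
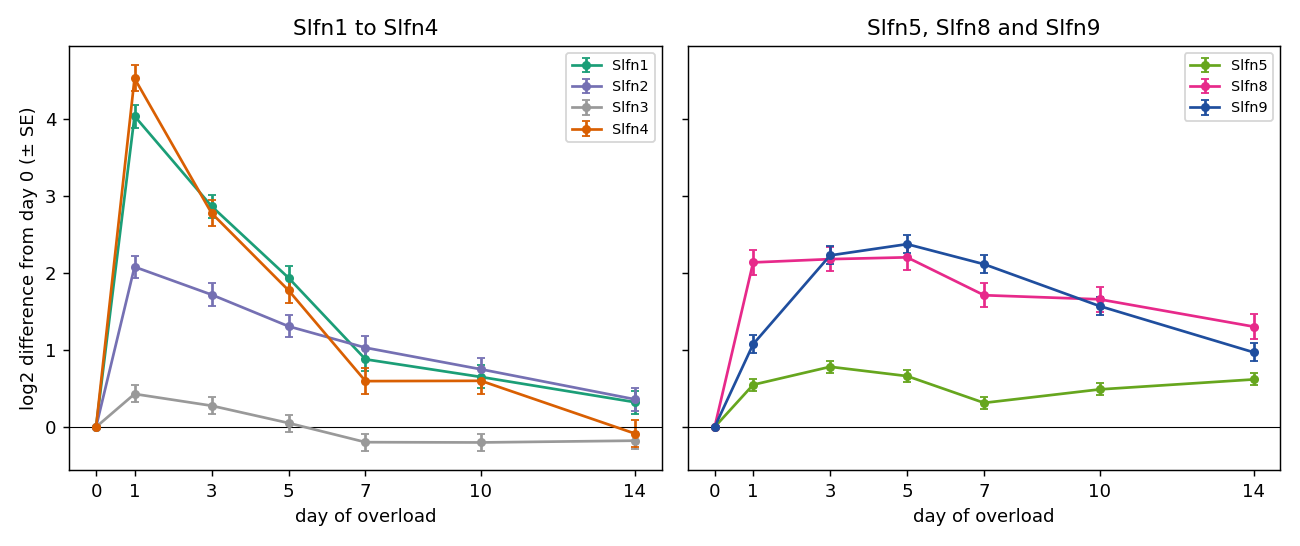
Log2 difference from day 0 (y axis, ± SE from limma, n = 2 arrays a day) against the day of overload (x axis) for Slfn1 to Slfn4 (left panel) and for Slfn5, Slfn8 and Slfn9 (right panel). Slfn4 and Slfn1 start at 4.53 and 4.04 on day 1 and stand at -0.08 and 0.32 on day 14, while Slfn8 and Slfn9 stand at 1.31 and 0.97 on that day.

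Left and right arrays of day 0 were apart in 5 members. The left array was higher by 0.41 for Slfn1, 0.47 for Slfn2, 0.61 for Slfn4 and 0.65 for Slfn8, beside a median absolute gap of 0.10 over all genes on that day. Slfn3 went the other way, with the left array at -0.31 against the right. For 14 neutrophil genes the mean log2 signal of that day was 9.49 in the left pool and 8.98 in the right, and for 16 genes of monocytes and macrophages 8.92 and 8.59. It was 9.79 and 8.89 for 3 genes of red blood cell precursors, which had the largest gap of the lists, 8.01 and 7.57 for 6 B cell genes, and 8.32 and 8.38 for 24 interferon-stimulated genes, which were lower on the left. Their part in the gap was not tested. Over all days, right against left with the day as a block was called for 0 of the 7 members and for 0% of all genes (limma; smallest adjusted p = 0.282), while 1 member, Slfn1, and 2092 genes had an unadjusted p under 0.05.

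The family was picked on day 1 against day 0, a contrast that holds no array of days 3 to 14. Over these days all 7 members differed between days by the moderated F test, as did 35% of all genes. The adjusted p was 1.38e-06 for Slfn4, 9.06e-07 for Slfn1, 1.15e-05 for Slfn9, 0.000153 for Slfn2, 0.00292 for Slfn8, 0.00424 for Slfn5 and 0.0134 for Slfn3. Without the right array of day 3 Slfn3 did not pass (adjusted p = 0.103). From day 3 to day 14, 6 of 7 members fell and 0 rose, beside 17.8% and 17.4% of all genes. Slfn4 fell by 2.87 ± 0.17 on the log2 scale (7.29-fold, adjusted p = 2.45e-07), Slfn1 fell by 2.55 ± 0.15 (adjusted p = 2.21e-07), Slfn2 fell by 1.36 ± 0.15 (adjusted p = 2.0e-05) and Slfn9 fell by 1.26 ± 0.12 (adjusted p = 6.17e-06). Slfn8 fell by 0.88 ± 0.16 (adjusted p = 0.000996) and Slfn3 fell by 0.45 ± 0.11 (adjusted p = 0.00674). Slfn5 stood at -0.16 ± 0.08 (adjusted p = 0.129), with a 95% interval from -0.34 to 0.01. The fall of Slfn3 did not pass without the right array of day 3 (-0.37, adjusted p = 0.068).

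From day 1 to day 3, among the 6 members tested, Slfn1 fell by 1.17 ± 0.15 (adjusted p = 6.97e-05) while Slfn9 and Slfn5 rose, so 1 fell and 2 rose, beside 24.7% and 19.5% of all genes. This step uses the day 1 arrays on which the family was picked, and Slfn1 itself ranked 21 among the rises of day 1. Its fall is therefore not independent of the choice, and nothing is read from these counts. Slfn2 stood at -0.36 ± 0.15 (adjusted p = 0.0616), which passed with equal array medians (-0.43, adjusted p = 0.0257), with the lowest 25% of genes left out (adjusted p = 0.0484), and without either array of day 0 (adjusted p = 0.0235) or the right array of day 1 (-0.54, adjusted p = 0.0259). Without the left array of day 1 it was -0.18 (adjusted p = 0.385). Slfn4 stood at -1.75 ± 0.17 in that step, given as a description.

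Between successive days from day 3 on, Slfn1 was called in the first and second steps, Slfn4 in these and the last, and Slfn9 in the third and the last; the timing of the genes was not compared by a test. From day 3 to day 5, 2 of 7 members fell and 0 rose, beside 1.9% and 4.68% of all genes: Slfn4 fell by 1.00 ± 0.17 (adjusted p = 0.00403) and Slfn1 fell by 0.93 ± 0.15 (adjusted p = 0.00283). Slfn8 and Slfn9 stood at 0.02 ± 0.16 and 0.15 ± 0.12 in that step, with 95% intervals from -0.32 to 0.37 and from -0.11 to 0.40. From day 5 to day 7 the same genes, Slfn4 and Slfn1, fell by 1.18 ± 0.17 (adjusted p = 0.00967) and fell by 1.06 ± 0.15 (adjusted p = 0.00917), beside 0.627% of all genes that fell and 0.401% that rose. With any of the 4 arrays of these days left out neither passed (adjusted p between 0.0565 and 0.0845), although the differences stayed between -1.19 and -1.03. Slfn8 stood at -0.49 ± 0.16 (adjusted p = 0.202) and passed without either array of day 0 (adjusted p = 0.0241), and Slfn5 at -0.35 ± 0.08 (adjusted p = 0.064) and passed with quantile normalization (-0.37, adjusted p = 0.045), with the lowest 25% of genes left out (adjusted p = 0.0342), with an intensity trend (adjusted p = 0.0236), and without either array of day 1 (adjusted p = 0.0455).

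From day 7 to day 10 Slfn9 fell by 0.54 ± 0.12 (adjusted p = 0.0403), 1 of 7 members beside 1% of all genes that fell and 0.933% that rose, and the call was lost in 11 of the 14 fits that left out 1 array, with the value at -0.32 without the right array of day 7 (adjusted p = 0.319). Slfn4 stood at 0.00 ± 0.17 in that step, with a 95% interval from -0.37 to 0.38. From day 10 to day 14, 2 of 7 members fell and 0 rose, beside 5.11% and 3.79% of all genes: Slfn4 fell by 0.69 ± 0.17 (adjusted p = 0.0296) and Slfn9 fell by 0.60 ± 0.12 (adjusted p = 0.00963). Neither passed without the left array of day 10 (-0.77 and -0.58, adjusted p = 0.0778 and 0.0626) or the right (-0.60 and -0.62, adjusted p = 0.188 and 0.0677), and Slfn4 was at -0.47 without the right array of day 14 (adjusted p = 0.18). Slfn9 did not pass without the left array of day 14 (-0.60, adjusted p = 0.0578). Slfn8 stood at -0.35 ± 0.16 in the step to day 14 (adjusted p = 0.196) and passed without either array of day 0 (adjusted p = 0.0295). Slfn2 passed with only the arrays compared at -0.41 from day 3 to day 5 (adjusted p = 0.0319) and at -0.39 from day 10 to day 14 (adjusted p = 0.046), and did not pass with all arrays (adjusted p = 0.127 and 0.119). Slfn4 lost its call from day 10 to day 14 in that setting (adjusted p = 0.0543), as did Slfn9 from day 7 to day 10 (adjusted p = 0.14).

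**Figure D3:**
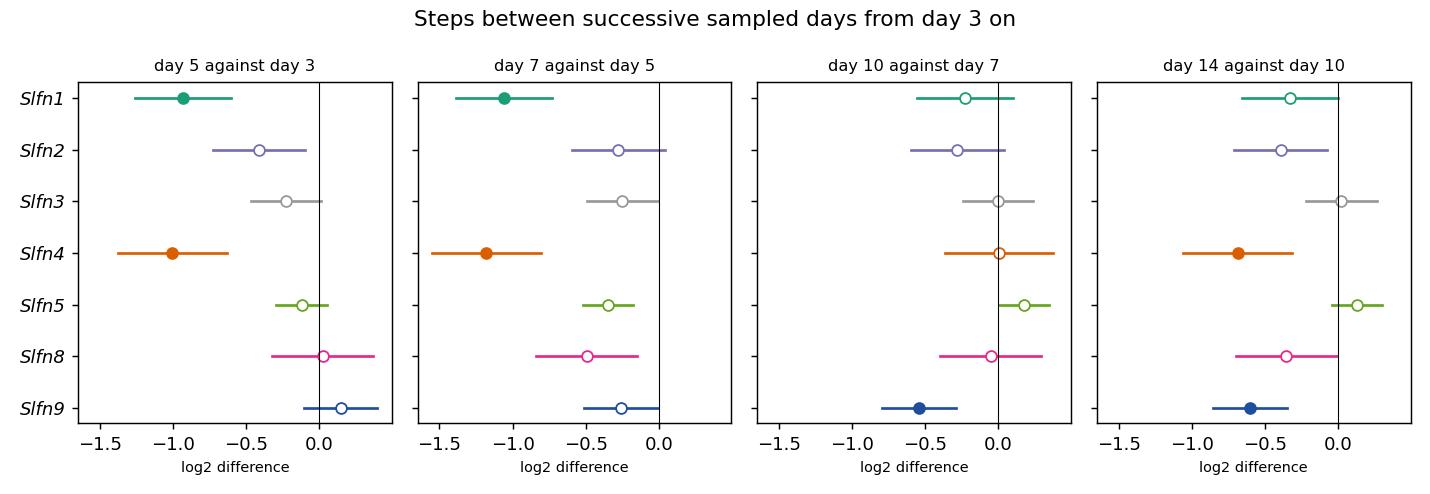
Log2 difference between successive sampled days from day 3 to day 14 (x axis, later minus earlier) for each Schlafen gene (y axis), with the 95% interval from limma as a line. Filled points passed at an adjusted p under 0.05, namely Slfn1 and Slfn4 in the first 2 steps, Slfn9 in the third and Slfn4 and Slfn9 in the last.

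The difference between Slfn4 and Slfn9 within an array changed with the day. The log2 signal of Slfn4 minus that of Slfn9 was 1.46 and 0.83 on the left and right arrays of day 0, 4.61 and 4.59 on day 1, 1.72 and 1.67 on day 3, 0.61 and 0.48 on day 5, and -0.14 and -0.60 on day 7. On day 10 it was 0.07 and 0.28, and on day 14 it was 0.30 and -0.12. Only the change of this ratio between arrays can be read, since signals of different probe sets are not on 1 scale of abundance. It was lower at each step from day 1 to day 7, with no overlap between these days, and higher again on day 10, also with no overlap; its day 1 value rests on the Slfn4 rise that picked the family. Slfn4 minus Slfn1 had a narrower range, between 0.16 and 1.15 over all 14 arrays. It was also highest on day 1 (1.15 and 1.00 on the left and right arrays) and was lowest on day 14 (0.16 and 0.19). Across the 14 arrays Pearson's r was 0.991 between Slfn1 and Slfn4, 0.947 between Slfn1 and Slfn2, 0.820 between Slfn8 and Slfn9 and 0.267 between Slfn4 and Slfn9. These are descriptions, since both arrays of a day share that day and the days fall into steps. The r values also include the arrays of the contrast that picked the family. Whether probes of 1 gene also bind RNA of another was not tested for Slfn1 to Slfn4 either.

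The genes most like each member were sought among 4271 named genes whose day means spanned at least 1 on the log2 scale, by Pearson's r over the 14 arrays. For Slfn4 they were the chemokine gene Cxcl3 (0.990), Tarm1, a receptor of myeloid cells (0.988), Cdk2ap2 (0.988), the decoy receptor gene Il1r2 (0.987) and Trem1, an activating receptor of neutrophils and monocytes (0.987). For Slfn1 they were Hilpda, a hypoxia-inducible protein of lipid droplets (0.991), Il1r2 (0.990), Gprc5a (0.989), the 2′-5′-oligoadenylate synthetase gene Oas3 (0.988) and Cdk2ap2 (0.986). For Slfn2 they were Gcnt1 (0.990), the interferon-induced membrane protein gene Ifitm1 (0.986), Cyp4f18 (0.986), Psd4 (0.985) and the glycogen phosphorylase gene Pygl (0.984). For Slfn8 they were Arhgap25 (0.994), the leukocyte surface gene Cd52 (0.990), the phosphatase gene Dusp6 (0.989), Ubash3b (0.989) and Ptafr, the receptor for platelet-activating factor (0.988). For Slfn9 they were the glycosyltransferase gene Alg8 (0.989), the histone methyltransferase gene Nsd2 (0.987), Plpp2 (0.984), Tnfrsf11a, which encodes RANK (0.984), and Tspo (0.983). Slfn3 and Slfn5, with spans of 0.63 and 0.78, were left out. The lists of Slfn1 and Slfn4 shared Il1r2 and Cdk2ap2. All these r values include the arrays of the contrast that picked the family. The early rise that picked Slfn4 thus counts in its r, and its list favours genes with a like early peak. The lists are descriptions, and the cells from which the RNA came were not tested.

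Genes of the interferon and Toll-like receptor pathways were counted beside the Schlafen genes. Whether these pathways had a part in the Schlafen values was not tested. Of 24 interferon-stimulated genes measured alone on the array, 22 rose on day 1, 23 on day 3, 24 on day 5, 21 on days 7 and 10 and 16 on day 14, when 1 fell. Over all genes, 22.3% rose and 22.6% fell on day 1, and the shares of the later days are those given above for the members. The median difference of the 24 interferon-stimulated genes from day 0 was 1.27 on day 1, 1.30 on day 3, 1.15 on day 5 and 0.47 on day 14. The antiviral GTPase gene Mx1 rose by 2.47 ± 0.14 and Dhx58, a sensor of viral RNA, by 2.37 ± 0.15 on day 3. Of 14 genes of interferon ligands, receptors and signalling, 8 rose and 3 fell on day 5, with a median of 0.44, and the receptor subunit genes Ifnar2 and Ifnar1 rose by 1.87 ± 0.12 and 1.60 ± 0.09. Of 14 genes of the Toll-like receptor pathway, 13 rose on each of the 6 days and the remaining 1 fell on days 1, 7, 10 and 14, with a median of 1.32 on day 1 and 1.96 on day 5. Tlr13, a receptor for bacterial ribosomal RNA, rose by 4.23 ± 0.20 on day 3 and the co-receptor gene Cd14 by 3.75 ± 0.08 on day 1.

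Marker genes of blood cells moved over the same days. Of 14 neutrophil genes 11 rose and 2 fell on day 1 with a median of 1.58, against 5 and 5 on day 3 with a median of 0.03, when 24.1% of all genes rose and 26.6% fell, and 0 and 11 on day 14 with a median of -1.41. Trem1 rose by 4.24 ± 0.12 and Il1r2 by 4.09 ± 0.16 on day 1. The mean log2 signal of the list was 10.90 and 10.65 on the arrays of day 1 and 7.96 and 8.13 on those of day 14. Of 16 genes of monocytes and macrophages 13 rose on day 1, with a median of 0.95, and all 16 on days 3 and 5, with medians of 2.75 and 2.78, and 15 on day 14, with 1.79. Ms4a7 rose by 4.33 ± 0.14 on day 5 and the scavenger receptor gene Msr1 by 3.81 ± 0.13 on day 3. Of 11 T cell genes 2 rose and 1 fell on day 1, 0 rose and 1 fell on day 3, and 8 rose on day 14, with medians of 0.11, 0.01 and 0.63. The T cell genes thus had their highest mean log2 signal, 8.22, on day 14, when Slfn1 and Slfn2 were at their lowest after day 0. Of the 14 muscle fibre genes 13 fell on day 5, with a median of -0.73. The part of these cells in the Schlafen values was not tested, and in whole muscle fewer cells of a type and less RNA per cell cannot be told apart.

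**Figure D4:**
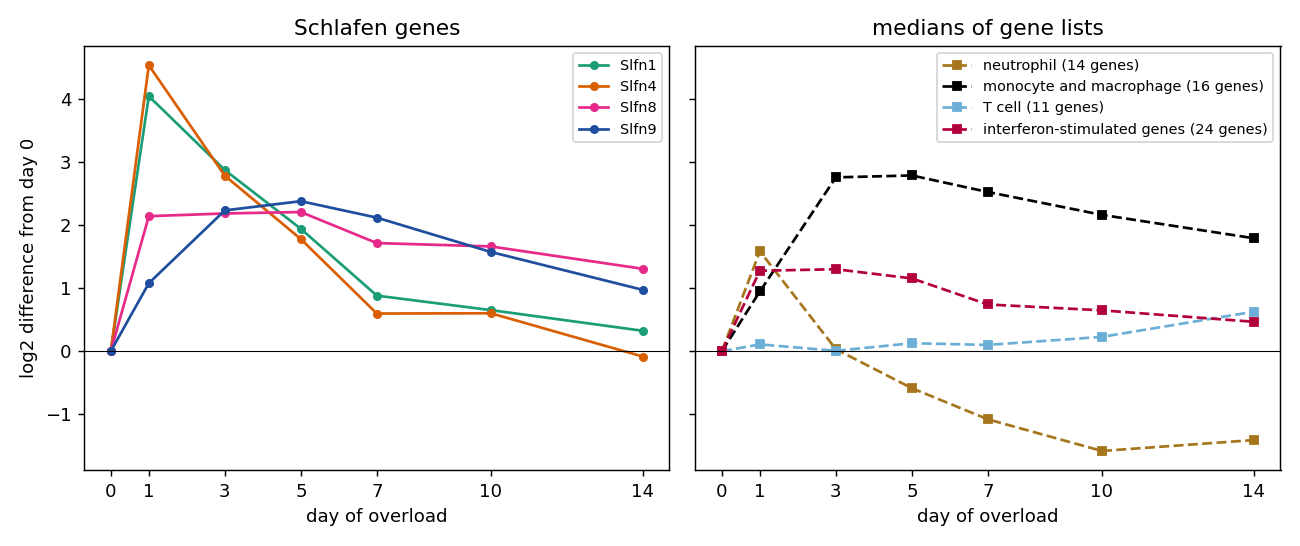
Log2 difference from day 0 (y axis) against the day of overload (x axis) for Slfn1, Slfn4, Slfn8 and Slfn9 (left panel) and as the median over the genes of 4 lists (right panel), with n = 2 arrays a day. The neutrophil median is 1.58 on day 1 and -1.41 on day 14, and the median of monocytes and macrophages is 2.78 on day 5.

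Markers of further cell types were counted in the same way. Of 6 natural killer cell genes 2 rose on day 1 and 3 on day 14, of 6 B cell genes 2 rose and 3 fell on day 14, and of 6 dendritic cell genes 2 rose and 1 fell on day 14, beside 22.9% of all genes that rose and 30.5% that fell. Of 8 endothelial genes 1 rose and 4 fell on day 1, and Kdr, which encodes a receptor for vascular growth factors, stood at -1.24 ± 0.07; of 8 fibroblast genes 2 rose and 5 fell on day 1 and all 8 rose on day 14, with the mean of the list at 1.92. All 3 red blood cell precursor genes measured alone fell on day 14.

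Among relatives outside the 7, Slfn10-ps, which lies between Slfn8 and Slfn2, had log2 signals of 7.19 and 6.95 on day 0, 8.32 and 8.38 on day 1, 8.79 and 8.71 on day 3, 8.75 and 8.72 on day 5 and 8.15 and 8.05 on day 14. It rose by 1.68 ± 0.09 on day 3 (adjusted p = 1.06e-08) and was 1.03 ± 0.09 above day 0 on day 14 (adjusted p = 9.86e-07). Slfnl1, a distant relative, stayed between 7.51 and 7.94 over all arrays and stood at -0.31 ± 0.11 against day 0 on day 3 (adjusted p = 0.0338). Slfn5os, a noncoding RNA gene annotated next to Slfn5, had day means that spanned 0.38 and was called on day 5 alone of days 3 to 14, at -0.34 ± 0.12 against day 0 (adjusted p = 0.0285). Slfn14 had no probe set named for it alone, so its signal was not analysed here.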

How the data were processed

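The authors deposited log2 signals per probe set of 14 Affymetrix arrays, which lay between 2.35 and 14.8. How the signals were normalized is not stated in the labels. The submitters' processing notes name Partek without a version. RNA input is put at 250 ng by the labelling protocol but 100 ng by the series' design. Detection calls were not used here, and precision is limited by having 2 arrays a day. Of 35557 probe sets, 21789 carried 1 gene symbol, 1621 several and 12147 none in the array annotation. Only the first were used, with the probe set of highest mean for a gene, which left 19938 genes.

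A linear model with the day as group used every array (limma 3.58.1, R 4.3.3), with two-sided tests and Benjamini-Hochberg adjustment across the 19938 genes. Slfn4 was not tested against days 0 and 1. Promoters are from RefSeq on GRCm38.p6. Genes named were the 7 members, the 2 largest called changes of each list and the 5 genes most like each member in r. On simulated data for day 7 against day 0 over 19938 genes, the fit recovered 2% of 50 genes given a log2 change of 0.25, 64% of 50 given 0.5 and 100% of 50 given 1, and 10 unchanged genes were called. Only 200 genes were changed in the simulation, whereas in the data 26.6% of all genes rose and 36.3% fell on that day. The adjustment is stricter where few genes change, so these shares do not give the power in the data. The members, gene lists and tests were chosen with earlier results of these data known.

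The left or right side numbers the replicates, but the side does not pair arrays of different days. Deviations of right arrays from the day means correlated between days at r from -0.19 to 0.35, over 0.1 in 6 of 21 pairs. The side as a block, other normalizations and filters, a variance trend, only the arrays compared, a threshold of 0.01 and each array left out were alternatives.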

Additional observations from a re-analysis of the deposited data

How the results depend on the processing

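Outside the fits that left out an array, 714 of 743 differences and F tests of single members kept their direction and their side of the threshold, 8 calls ended, 15 were gained and 6 differences changed sign, none of them called. These were Slfn3 on day 5 against day 0 (-0.0767) and on day 10 against day 7 (0.0047, beside -0.0035) with equal array medians, and Slfn8 on day 3 against day 1 (-0.027 and -0.0235) and on day 5 against day 3 (-0.01 and -0.0105) with quantile normalization and equal array medians. Equal medians moved the median of all genes on day 7 from -0.14 to -0.29. This shift exceeds the spread of the array medians over all probe sets, 7.91 to 7.97, so the setting did not equalize those but acted on the 19938 genes used. With equal medians 1 member, Slfn3, was lower on each of days 7, 10 and 14 than on day 0, and from day 1 to day 3 1 was higher and 2 lower. In that step 2 were lower also without the lowest 25% of genes. The count of higher members in that step was 1 with only the arrays compared and at a threshold of 0.01. From day 7 to day 10 the single call ended under both of these (0 lower), and from day 10 to day 14, 1 was lower at 0.01. With the side as a replicate block 6 members were higher on day 3 against day 0, with Slfn3 added at 0.28 (adjusted p = 0.0341), and it changed no other call.

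With each array left out in turn, Slfn4 on day 1 against day 0 ranged from 4.23 to 4.84. Against day 0 the higher count ranged from 3 to 5 on day 14, and the lower count from 0 to 1 on days 7, 10 and 14. The higher count on day 3 was 5 to 6, 5 to 6 fell from day 3 to day 14, and 6 to 7 passed the F test. From day 1 to day 3, 1 to 2 members were called in each direction, and 0 to 3 were lower from day 5 to day 7, 0 to 1 from day 7 to day 10 and 0 to 3 from day 10 to day 14. Slfn4 on day 14 against day 0 ranged from -0.39 to 0.22, Slfn2 for right against left from -0.081 to 0.0264 and Slfn3 on day 5 against day 0 from -0.10 to 0.21. The uncalled Slfn3 ranged from -0.073 to 0.066 on day 10 against day 7 and from -0.0184 to 0.0649 on day 14 against day 10, Slfn4 from -0.0841 to 0.0924 on day 10 against day 7, and Slfn8 from -0.0638 to 0.1492 on day 3 against day 1 and from -0.0833 to 0.1297 on day 5 against day 3. Where an array was left out, the lone array of its day was assumed to vary like the others. The cause of these changes was not tested.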
